A study of Mus musculus with 4 samples.

Results

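The expression of 9 complement genes was followed across the cell types of tumours of 4T1, a mammary carcinoma line of the mouse, implanted in female BALB/c mice. The genes were taken by symbol from the deposited matrix and are 9 of its 55450 genes: C1qa, C1qb, C1qc, C1ra, C1s1, C4b, C3, Cfb and Serping1. All mice were 6 to 8 weeks old, carried 1000000 implanted 4T1 cells and were injected intravenously on day 7, and all tumours received near infrared light of 980 nm for 5 min, at 1.0 W per square cm, on each of days 8, 9 and 10 and were taken on day 13. The injection was PBS for 2 samples and TIOs for 1 sample, TIOs being a light-controlled oncolytic carrier derived from frozen macrophages. A sample titled PBS whose protocol names TIOs was left in no group. The labels give no number of mice per sample. The single-cell libraries were made after a sort for CD45, the pan-leucocyte surface protein.

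The deposited matrix joins 4 libraries, told apart by a barcode suffix, and no source used here ties a suffix to a sample. PBS and TIOs were therefore not compared, no p-value was computed, and values are shown for library 1, library 2, library 3 and library 4 apart, as those of samples of unknown treatment. After removal of barcodes with under 300 genes or over 15% mitochondrial UMIs (unique molecular identifiers, counts of captured RNA molecules), 32133 of 33064 barcodes remained, with 6783 to 8889 cells per library. Library depth lay between 69255999 and 108646352 UMIs, and the median cell of a library held 2641.5 to 11698 UMIs. A total of 95 barcode sequences occurred in more than 1 library, of 32038 distinct ones. Cells were assigned to a class by lists of marker genes that hold no complement gene, and 88 of the 96 markers were highest in their own class. Since the same markers made the classes, this count does not test them. The classes are called by the markers they carry: macrophage-like (4440 cells), monocyte-like (2803), neutrophil-like (9313), T-like (1095), fibroblast-like (4099), pericyte or smooth muscle-like (178), endothelial-like (310) and tumour or epithelial-like (3822), with smaller dendritic, NK, basophil or mast, plasmacytoid dendritic and keratinocyte-like classes. Against the CD45 sort, 26.6% of cells fell in a non-immune class, and a UMI of Ptprc, the CD45 gene, was found in 29.3% of fibroblast-like, 14.9% of tumour or epithelial-like and 88.3% of T-like cells. Library 1 stood apart in holding 3627 of 3822 tumour or epithelial-like cells, whereas 2240 of 2803 monocyte-like cells came from library 4.

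Complement is a cascade of serum proteins that tags surfaces for uptake and lysis. In its classical arm, C1q, built from the products of C1qa, C1qb and C1qc, binds its target and activates the attached proteases C1r and C1s, which cleave C4 and C2 to form an enzyme that splits C3. In the alternative arm, factor B joins deposited C3 fragments to make a further C3-splitting enzyme, and the C1 inhibitor encoded by Serping1 blocks C1r and C1s. The liver makes most of the circulating components, whereas C1q comes mainly from macrophages and dendritic cells, and fibroblasts are a known tissue source of several of the others.

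All 3 C1q genes were highest in macrophage-like cells and the other 6 members were highest in fibroblast-like cells when the libraries were pooled. Levels are given as CPM (a gene's count scaled to 1000000 UMIs summed over the cells of a class), not divided by gene length because each captured molecule is read from its 3′ end, with exact Poisson 95% intervals that cover counting error only. Among 12501 genes with at least 10 CPM in a class, macrophage-like cells were the highest class for 3.56% and fibroblast-like cells for 8.11%. The C1q genes exceeded the next class more than 5-fold, as did 0.168% of genes for macrophage-like cells, whereas none of the 6 fibroblast members passed that fold, against 0.88% of genes for fibroblast-like cells. Among classes with at least 20 cells in a library, the leading class of 7 of the 9 members was the same in each of the 4 libraries. The exceptions were Cfb and Serping1, for which it held in 3. The 11 pericyte or smooth muscle-like cells of library 4 were therefore not ranked. They held 26 of the 2900 C1s1 UMIs of that library, and whether that class led there was not determined. Intervals of the leading and next class overlapped for C1ra in library 1 and for C4b and Cfb in library 3. A leading level is not a leading share of the UMIs. In library 1 tumour or epithelial-like cells were 46.2% of cells and held 73066359 of its 108363974 UMIs. They held the largest shares of the C3 (59.4%), C1ra (50.4%), C1s1 (49.0%) and C4b (32.5%) UMIs of that library. Their levels of these genes were 69.0, 6.09, 5.30 and 9.81 CPM, each below the fibroblast-like level in library 1. Macrophage-like cells held 52.1% of the Cfb UMIs of library 1.

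**Figure D1:**
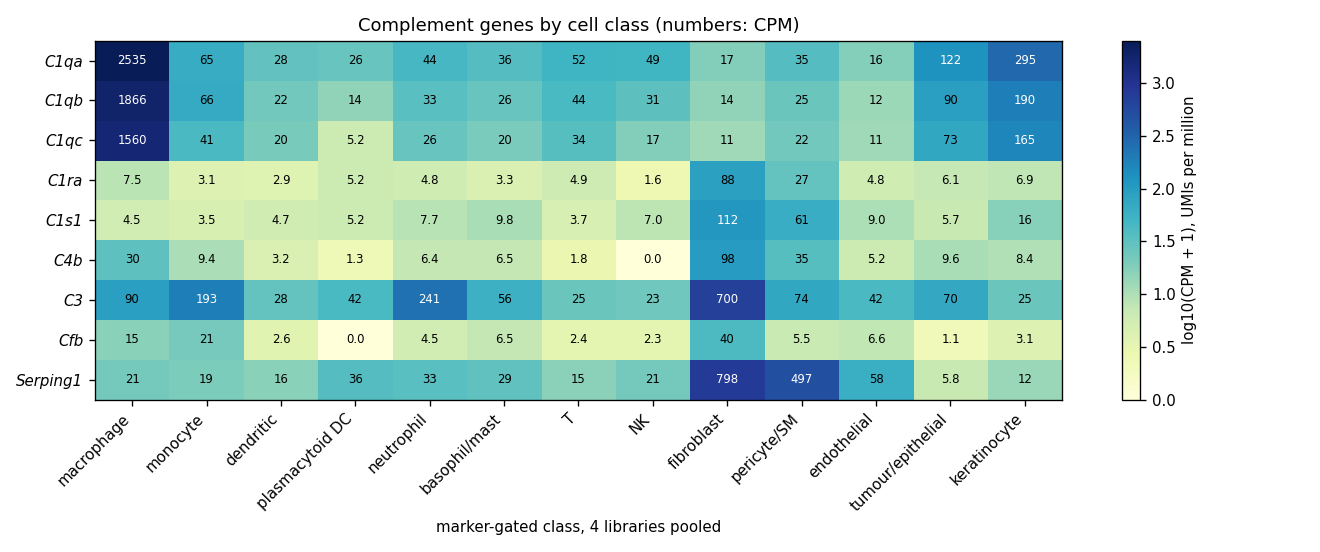
Heat map of the level of the 9 members (rows) in 13 marker-gated classes (columns), 4 libraries pooled; colour is log10(CPM + 1) and the number in each cell is CPM. The C1q rows peak in the macrophage column (C1qa 2535 CPM), and the other 6 rows peak in the fibroblast column (Serping1 798 CPM).

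C1qa, C1qb and C1qc encode the chains that wind together into the C1q molecule, and they lie side by side on the minus strand of chromosome 4 (GRCm38, GENCODE vM21): C1qb at chr4:136880129-136886187, C1qc at chr4:136889804-136893065 and C1qa at chr4:136895917-136898803. The promoters of C1qb (chr4:136886151-136886450) and C1qc (chr4:136892865-136893164) are printed because their levels followed each other across classes and libraries. They are RefSeq sequences of GRCm38.p6 on the minus strand, from 250 bases before to 50 after the RefSeq start. For C1qc that start lies inside the gene as placed by GENCODE, so some bases counted as before the start fall within it. Capitals mark the ETS letters AGGAAG on either strand, the core bound by the myeloid factor PU.1 and its relatives.

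C1qb: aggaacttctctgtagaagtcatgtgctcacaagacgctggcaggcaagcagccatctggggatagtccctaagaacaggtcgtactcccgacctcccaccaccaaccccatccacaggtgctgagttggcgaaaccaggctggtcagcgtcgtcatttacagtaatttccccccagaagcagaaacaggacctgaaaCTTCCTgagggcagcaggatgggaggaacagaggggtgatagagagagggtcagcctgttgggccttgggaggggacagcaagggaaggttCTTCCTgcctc

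C1qc: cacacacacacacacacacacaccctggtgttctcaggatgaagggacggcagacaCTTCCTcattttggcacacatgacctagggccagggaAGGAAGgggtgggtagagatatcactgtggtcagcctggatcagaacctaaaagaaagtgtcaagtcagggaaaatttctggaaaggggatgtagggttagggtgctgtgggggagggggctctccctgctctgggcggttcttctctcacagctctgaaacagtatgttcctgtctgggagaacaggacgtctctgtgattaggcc

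The matches began at bases -52 and 40 from the RefSeq start of C1qb and at -194 and -157 of C1qc. Of 27025 mouse promoters of the same length, 35.1% hold these letters on either strand, so such matches are common.

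In macrophage-like cells C1qa stood at 5236 CPM in library 1, 1392 in library 2, 319 in library 3 and 516 in library 4. C1qb stood at 3732, 1026, 338 and 510 CPM in the same order, and C1qc at 3156, 877, 279 and 365 CPM. Library 1 was highest and library 3 lowest for each chain, and no intervals of these extremes overlapped. Over all macrophage-like cells the 3 genes ranked 48, 81 and 109 among all genes, at 2535, 1866 and 1560 CPM. Macrophage-like cells were 13.8% of cells and held 73.4% of all C1q UMIs. For C1qa their share was 76.6%, 76.9%, 59.1% and 50.1% in libraries 1 to 4. Cells left unassigned between classes held 12.4% of C1qa UMIs when pooled, and 9.67%, 13.3%, 25.3% and 33.1% in libraries 1 to 4. Of these unassigned cells, 2308 lay between monocyte and macrophage.

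T cells are not known to make C1q, so their level served as a reference for free RNA in each library. This reason covers the C1q genes only. For the other members the T-like level is given as a comparison, and whether T cells make them was not tested. Whether free RNA was equal between classes was not tested, so a level above T-like cells does not by itself mark a source. T-like cells held C1qa at 144 CPM in library 1, 11.96 in library 2, 1.06 in library 3 and 16.6 in library 4. Macrophage-like cells exceeded them 36.4-fold in library 1 (95% counting interval 32.2 to 41.3), 116-fold in library 2 (63.2 to 243), 300.1-fold in library 3, where the T-like cells held 2 UMIs (82.8 to 2483), and 31.0-fold in library 4 (19.1 to 54.3). Library 1 was highest and library 3 lowest in T-like cells as in macrophage-like cells.

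Monocyte-like cells were next after macrophage-like cells for C1qa within each library. Their C1qa level was 594, 60.01, 16.3 and 57.7 CPM in libraries 1 to 4. The interval of their ratio to T-like cells lay above 1 in all 4 libraries for each of the 3 chains. No C1q UMI was found in 74.6% of monocyte-like cells when pooled, from 19.6% in library 1 to 92.3% in library 3. The tenth of monocyte-like cells richest in C1q held 89.3% of the C1q UMIs of the class. Tumour or epithelial-like cells held C1qa at 134 CPM in library 1 and 12.6 CPM in library 2, which is 0.93-fold (0.82 to 1.06) and 1.05-fold (0.55 to 2.26) the T-like level. For C1qa, neutrophil-like cells were above T-like cells in 3 of 4 libraries. They stood at 2.28-fold (1.96 to 2.66) in library 1 at 328 CPM and 3.06-fold (1.64 to 6.47) in library 2. In library 3 they stood at 4.03-fold (1.02 to 34.8) and in library 4 at 0.96-fold (0.55 to 1.80). The interval lay above 1 in 2 of 4 libraries for C1qb and in 1 of 4 for C1qc. In library 3, C1qb stood at 0.91-fold (0.40 to 2.31) and C1qc at 0.85-fold (0.33 to 2.60). In library 1, C1qa had a UMI in 34.1% of neutrophil-like and 47.8% of T-like cells. The tenth of cells richest in C1qa held 60.2% of its UMIs in the neutrophil-like class and 39.5% in the T-like class. The median neutrophil-like cell of library 1 held 1546 UMIs and the median T-like cell 3972. The part of this depth gap in the result was not tested. In the pooled libraries the keratinocyte-like class came next after macrophage-like cells (295 CPM of C1qa). Of its 129 cells, 127 were from library 1, where they held 307 CPM, 2.13-fold the T-like level. Pericyte or smooth muscle-like cells of library 1, only 25 cells, held C1qa at 413 CPM, 2.87-fold (2.24 to 3.64) the T-like level. Their C1qb stood at 2.85-fold and their C1qc at 2.98-fold, whereas for C1qa the interval held 1 in libraries 2 and 3. In library 1 their 95 C1qa UMIs came from 10 cells, 40% of the class, beside 47.8% of T-like cells with a UMI. The interval does not cover this spread between cells.

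The proportions of the chains differed between libraries. In library 1 the C1q UMIs of macrophage-like cells were 43.2% C1qa, 30.8% C1qb and 26.0% C1qc, and those of tumour or epithelial-like cells were 42.9%, 31.5% and 25.6%. In macrophage-like cells C1qa made up 42.3% in library 2, 34.1% in library 3 and 37.1% in library 4, while C1qb made up 31.1%, 36.1% and 36.7%. C1qa therefore led C1qb in libraries 1 and 2, and the pair was level in libraries 3 and 4 (intervals 296 to 343 and 315 to 363 CPM in library 3).

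The libraries also differed in how many macrophage-like cells held C1q. All 3 genes had a UMI in 91.6% of macrophage-like cells of library 1, 44.3% of library 2, 17.5% of library 3 and 26.9% of library 4, and none of them in 1.38%, 31.1%, 61.0% and 44.97%. The median macrophage-like cell held 122 C1q UMIs in library 1, 4 in library 2, 0 in library 3 and 1 in library 4. These cells were also the deepest in library 1, with a median of 10459 UMIs against 4627.5, 4106 and 7316. The tenth of macrophage-like cells richest in C1q held 25.0% of the C1q UMIs of the class in library 1 and 56.2%, 74.9% and 64.1% in libraries 2, 3 and 4. When each cell was thinned to 1000 UMIs, C1qa had a UMI in 48.4% of macrophage-like cells (46.8 to 49.9; 60.2% before thinning, median depth 6436 UMIs), against 6.96% of T-like cells (5.51 to 8.66; 18.8% before thinning, median depth 3803 UMIs).

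Within macrophage-like cells the C1q level differed with Arg1, the arginase of alternatively activated macrophages. Cells without an Arg1 UMI held more C1qa than cells with it in every library: 5435 against 4962 CPM in library 1, 2324 against 997 in library 2, 504 against 260 in library 3 and 650 against 476 in library 4. The ratio ran from 1.10 (1.08 to 1.11) in library 1 to 2.33 (2.25 to 2.42) in library 2. Cells with a UMI of Cd163, a scavenger receptor of resident-type macrophages, held more C1qa than those without, at 1946 against 956 CPM in library 2, 464 against 250 in library 3 and 698 against 412 in library 4. In library 1 only 26 macrophage-like cells had a Cd163 UMI, and their level was 5876 against 5224 CPM, a ratio of 1.12 (1.07 to 1.18). The split by H2-Ab1, an MHC class II gene, gave no common direction, with ratios of 1.27, 1.01, 1.16 and 0.80 for the cells above their library's median. Arg1 and Cd163 are also markers of the macrophage gate, and the part of the gate in these differences was not tested.

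**Figure D2:**
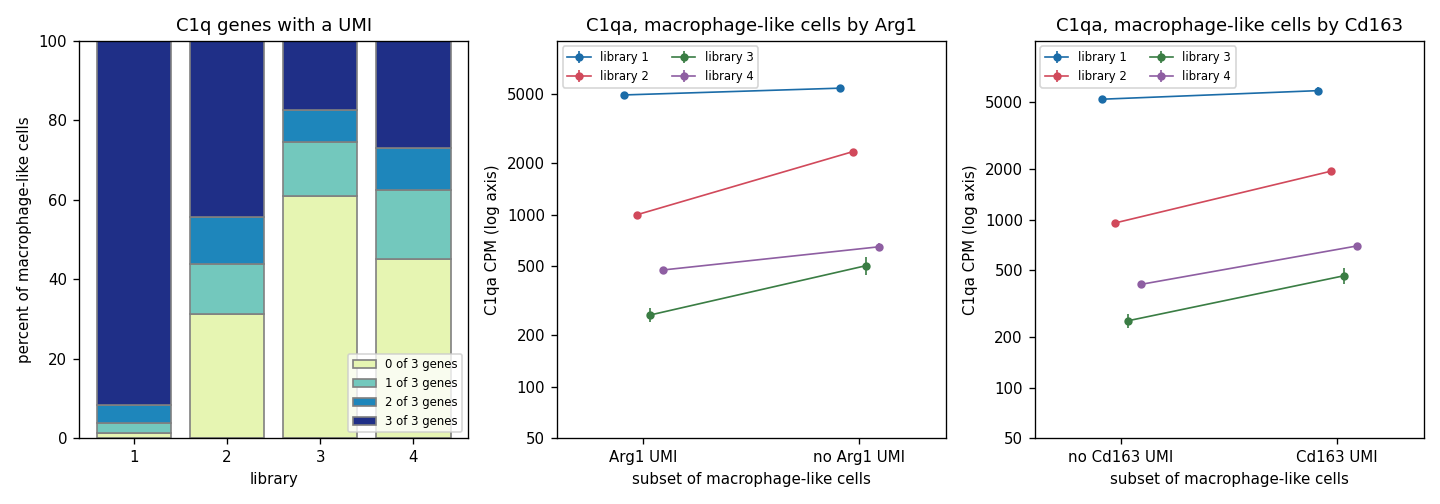
Left, stacked bars of the percent of macrophage-like cells with a UMI of 0, 1, 2 or 3 of the C1q genes in each library; middle and right, C1qa level in CPM (log axis) in macrophage-like cells split by a UMI of Arg1 or Cd163, with points joined within a library and exact Poisson 95% intervals. Cells with all 3 genes were 91.6% in library 1 and 17.5% in library 3, and each line rises towards the cells without Arg1 and towards those with Cd163.

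C1ra and C1s1 encode the proteases that C1q activates, and they lie close together on chromosome 6, C1ra on the plus strand (chr6:124512405-124523443) and C1s1 on the minus strand (chr6:124530345-124542359). In fibroblast-like cells C1ra stood at 89.5, 159, 50.4 and 60.03 CPM in libraries 1 to 4, and C1s1 at 101, 218, 65.8 and 62.6 CPM. Library 2 was highest for both genes. Pericyte or smooth muscle-like cells came next in the 3 libraries with enough of these cells (libraries 1 to 3), with C1ra at 69.6, 30.1 and 16.5 CPM and C1s1 at 39.1, 79.7 and 38.1 CPM. In library 1 the C1ra intervals of fibroblast-like (78.7 to 101 CPM) and pericyte or smooth muscle-like cells (39.8 to 113 CPM) overlapped. In T-like cells C1ra lay between 2.79 and 9.57 CPM and C1s1 between 1.12 and 8.37 CPM. These levels rest on 5 to 8 C1ra UMIs and 2 to 8 C1s1 UMIs per library, so ratios to them are wide. Macrophage-like cells, the leading class for C1q, held C1ra at 5.26 to 10.8 CPM and C1s1 at 0.69 to 11.2 CPM. The interval of their ratio to T-like cells lay above 1 in 1 of 4 libraries for C1ra (2.44-fold, 1.01 to 7.71, in library 1). For C1s1 it lay above 1 in 0 of 4. Fibroblast-like cells, with 12.8% of cells and 34.5% of all UMIs, held 88.6% of the C1ra UMIs and 89.3% of the C1s1 UMIs when pooled. In library 1, with 183 fibroblast-like cells, they held 28.1% and 35.3%. Tumour or epithelial-like cells held 50.4% and 49.0% there, at levels of only 6.09 CPM for C1ra and 5.30 CPM for C1s1.

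Each protease gene has a near copy in the mouse, C1rb (chr6:124570294-124581171) and C1s2 (chr6:124624625-124636085), and the counting could split reads between copies, so the levels of single copies are uncertain. C1rb stood at 51.9 CPM and C1s2 at 32.0 CPM in pooled fibroblast-like cells, their highest class, beside 87.7 CPM for C1ra and 112 CPM for C1s1. C1s1 also overlaps the antisense gene Gm16567, and the sources do not say whether counting used strand. The promoters of C1ra (chr6:124512371-124512670, plus strand) and C1s1 (chr6:124542310-124542609, minus strand) are shown because the pair had nearly the same profile across classes. The RefSeq start of C1ra lies inside the gene as placed by GENCODE, so most of its printed stretch falls within that gene. Capitals mark the C/EBP letters TTGCNNAA, the interferon-gamma (GAS) letters TTCNNNGAA and the ETS letters AGGAAG, searched on both strands.

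C1ra: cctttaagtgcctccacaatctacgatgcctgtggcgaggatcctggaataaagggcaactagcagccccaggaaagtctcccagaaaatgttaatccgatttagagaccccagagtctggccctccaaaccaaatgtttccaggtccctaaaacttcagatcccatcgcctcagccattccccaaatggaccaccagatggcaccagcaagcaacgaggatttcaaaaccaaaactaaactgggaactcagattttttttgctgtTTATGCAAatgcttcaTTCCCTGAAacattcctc

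C1s1: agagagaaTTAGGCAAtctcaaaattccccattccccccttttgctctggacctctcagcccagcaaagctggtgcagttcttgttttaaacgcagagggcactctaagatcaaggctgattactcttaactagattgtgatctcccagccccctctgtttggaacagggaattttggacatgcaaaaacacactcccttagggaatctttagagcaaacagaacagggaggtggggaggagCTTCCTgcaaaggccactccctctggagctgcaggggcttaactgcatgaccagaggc

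C1ra holds a C/EBP match at base 17 and a GAS match at base 33 after its RefSeq start, and C1s1 a C/EBP match at -242 and an ETS match at -8. The C/EBP letters occur in 10.8% and the GAS letters in 8.47% of all promoters of this length, and no matches overlapped in the 5 promoters searched.

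C4b encodes complement C4, the first substrate of C1s (chr17:34728380-34743882, minus strand). Fibroblast-like cells held C4b at 222 CPM in library 1, 196 in library 2, 45.6 in library 3 and 53.0 in library 4, so that libraries 1 and 2 lay well above the other pair. The lead over pericyte or smooth muscle-like cells was 1.49 on the log2 scale when pooled and 0.31 without library 2. Pericyte or smooth muscle-like cells stood at 100.01, 21.1 and 38.7 CPM in libraries 1 to 3, and in library 3 their interval (29.6 to 49.8 CPM) overlapped that of fibroblast-like cells (43.6 to 47.8 CPM). Macrophage-like cells held 47.7, 33.5, 10.1 and 9.90 CPM, ahead of pericyte or smooth muscle-like cells in library 2 and close to monocyte-like cells (10.03 CPM) in library 4, beside the T-like level (1.12, 7.18 and 1.06 CPM in libraries 1 to 3 and no UMI in library 4). The C4b level of macrophage-like cells also went with Cd163, at 256 against 43.5 CPM in library 1 (5.88-fold, 4.47 to 7.61, 26 cells with Cd163) and 52.8 against 18.3 CPM in library 2 (2.88-fold, 2.23 to 3.76), but at 10.5 against 9.53 CPM in library 4 (1.11-fold, 0.72 to 1.68). By Arg1 the direction turned between libraries, with 0.58-fold (0.50 to 0.68) in cells without Arg1 in library 1 and 5.00-fold (3.88 to 6.50) in library 2. The near copy C4a reached at most 0.22 CPM in a pooled class, and reads shared by the copies cannot be placed by these counts.

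**Figure D3:**
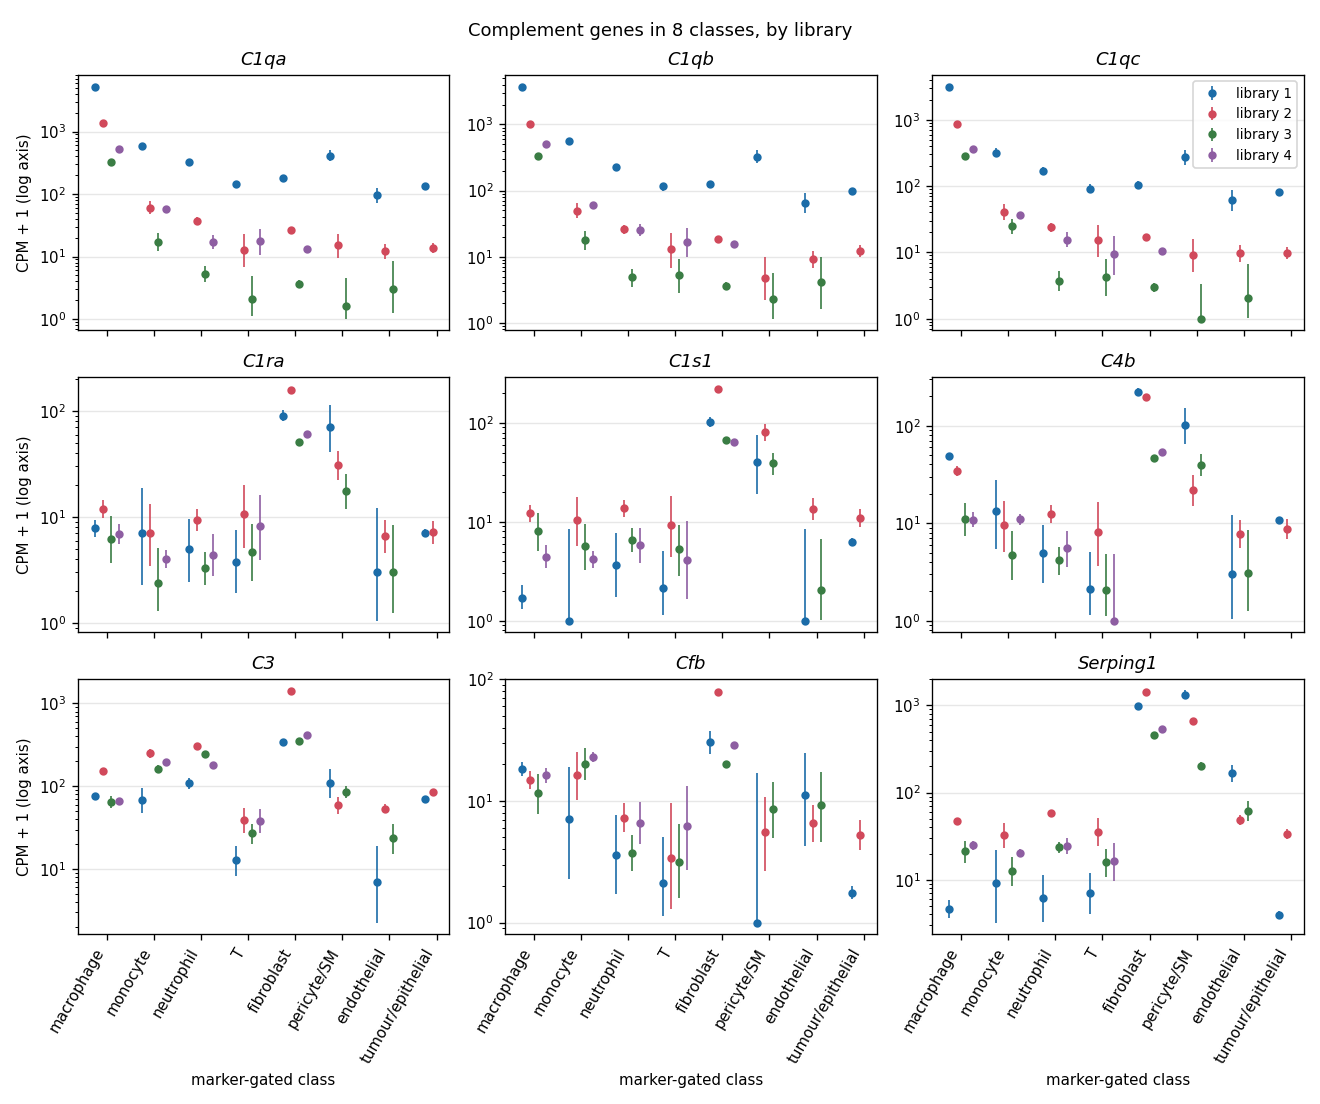
Level of each member (CPM + 1, log axis) in 8 marker-gated classes, with 1 point per library where the class held at least 20 cells; bars are exact Poisson 95% intervals of counting error. The C1q panels peak in macrophage-like cells in all 4 libraries (C1qa 319 to 5236 CPM), and C3 is highest in fibroblast-like cells in all 4, with neutrophil-like and monocyte-like cells above T-like cells.

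C3, the protein on which all arms of the cascade meet (chr17:57203970-57228136, minus strand), was read above the T-like level in macrophage-like, monocyte-like, neutrophil-like and fibroblast-like cells of each library. Its promoter (chr17:57228087-57228386, minus strand) is shown because C/EBP factors, which are known inducers of the C3 gene, bind letters of the type TTGCNNAA, in capitals together with a TATAAA.

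C3: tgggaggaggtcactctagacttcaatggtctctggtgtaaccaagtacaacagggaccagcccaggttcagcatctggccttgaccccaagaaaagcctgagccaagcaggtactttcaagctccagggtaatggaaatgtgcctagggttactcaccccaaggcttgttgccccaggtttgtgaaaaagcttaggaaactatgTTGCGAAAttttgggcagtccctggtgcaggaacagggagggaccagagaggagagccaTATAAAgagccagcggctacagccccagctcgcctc

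The C/EBP match begins at base -45 and the TATAAA, found in 14.2% of all promoters, at base 15 from the annotated start. The interferon-stimulated letters GAAA, NN and GAAA in a row, held by 3.49% of promoters, were found in 0 of the 5 promoters searched.

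Fibroblast-like cells held C3 at 341 CPM in library 1, 1430 in library 2, 348 in library 3 and 410 in library 4. They held 77.8% of all C3 UMIs, and 50.7% when each cell was thinned to 1000 UMIs. Before thinning, their share ran from 11.2% in library 1, where tumour or epithelial-like cells held 59.4%, to 89.2% in library 2. Library 2 alone held 53453 of the 85659 C3 UMIs of fibroblast-like cells. Neutrophil-like cells stood at 108, 303, 243 and 182 CPM and monocyte-like cells at 67.3, 248, 163 and 196 CPM. Neutrophil-like cells were ahead of monocyte-like cells in libraries 1, 2 and 3 and behind them in library 4. Macrophage-like cells held 76.0, 150.1, 64.0 and 65.7 CPM, less than neutrophil-like cells in each library and less than monocyte-like cells in libraries 2 to 4. T-like cells held 11.7, 38.3, 26.1 and 37.4 CPM. Against them, neutrophil-like cells were 9.24-fold (5.85 to 15.3), 7.91-fold (5.59 to 11.6), 9.34-fold (7.04 to 12.7) and 4.86-fold (3.47 to 7.00) higher, and the interval of macrophage-like cells was above 1 in 4 of 4 libraries, ending with 1.75-fold (1.25 to 2.53) in library 4. Tumour or epithelial-like cells held 69.0 CPM in library 1, 5.89-fold the T-like level (3.85 to 9.52), and 84.5 CPM in library 2, 2.21-fold (1.55 to 3.25). For endothelial-like cells the interval of the ratio held 1 in the 3 libraries with enough of these cells.

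C3 was also read per UMI of Serping1, the other member abundant in fibroblast-like cells. Fibroblast-like cells held 0.35, 0.99, 0.76 and 0.77 C3 UMIs per Serping1 UMI in libraries 1 to 4. Neutrophil-like cells held 5.36, 10.8 and 7.69 and monocyte-like cells 7.81, 14.0 and 10.1 in libraries 2 to 4. Tumour or epithelial-like cells held 23.4 in library 1 and 2.60 in library 2, and macrophage-like cells 21.1, 3.29, 3.17 and 2.76. T-like cells, at 1.91, 1.10, 1.75 and 2.40, lay above fibroblast-like cells and below the neutrophil-like and monocyte-like classes in libraries 2 to 4. The part of free RNA in these ratios was not tested.

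When each cell was thinned to 1000 UMIs, C3 had a UMI in 40.5% of fibroblast-like cells (39.0 to 42.1; 85.9% before thinning, median depth 27229 UMIs), 20.04% of neutrophil-like cells (19.2 to 20.9; 32.3% before, 1799 UMIs), 18.0% of monocyte-like cells (16.6 to 19.5; 65.3% before, 8246 UMIs) and 3.01% of T-like cells (2.07 to 4.22; 10.5% before, 3803 UMIs). At equal depth the neutrophil-like and monocyte-like shares were thus close, although far apart before thinning.

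C3 also varied within classes. The genes used to split them here (Dpt, Lrrc15, Retnlg, Chil3) are markers of the gate of their class, and the part of the gate in the differences was not tested. Fibroblast-like cells with a UMI of Dpt, a matrix gene of adventitial-type fibroblasts, and none of Lrrc15, a marker of tumour myofibroblasts, held C3 at 2041 CPM in library 2, 415 in library 3 and 477 in library 4. Cells with both UMIs held 1081, 241 and 204 CPM. Cells with Lrrc15 alone held 542 CPM in library 2 and 143 in library 3, and the fold from Dpt alone to Lrrc15 alone was 3.77 (3.55 to 4.00) in library 2 and 2.90 (2.43 to 3.49) in library 3. In library 1, where Dpt alone was too rare, cells with both held 497 CPM and cells with Lrrc15 alone 54.6 CPM. Serping1 moved less over the same split in library 2 (1607 against 1077 CPM, 1.49-fold, 1.43 to 1.56), and Cfb hardly at all (75.9 against 63.2 CPM, 1.20-fold, 1.00 to 1.45).

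Neutrophil-like cells without a UMI of Retnlg, a gene of mature blood neutrophils, held more C3 than those with it in each library, at 143 against 84.9, 330 against 224, 261 against 219 and 206 against 151 CPM. Monocyte-like cells with a UMI of Chil3, a chitinase-like gene of classical monocytes, held more C3 than those without, at 373 against 162 CPM in library 2, 229 against 120 in library 3 and 221 against 159 in library 4. In library 1 only 102 monocyte-like cells were found. In macrophage-like cells the C3 ratio had no common direction over the libraries, at 0.97, 1.15, 1.27 and 1.07 for cells without against with Arg1 and at 1.14, 1.00, 0.79 and 1.09 for cells with against without Cd163. Tumour or epithelial-like cells were split by the proliferation genes Mki67 and Top2a. In library 1, cells with a UMI of Epcam or Cldn4 and none of Mki67 or Top2a held C3 at 99.3 CPM. Cells with a UMI of Mki67 or Top2a held 53.1 CPM. The ratio was 1.87 (1.77 to 1.98) in library 1 and 1.23 (1.04 to 1.44) in library 2. Cells with none of these genes were in neither set, so the split is not by proliferation alone. Epcam and Cldn4 are also markers of the gate, and the part of the gate was not tested.

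**Figure D4:**
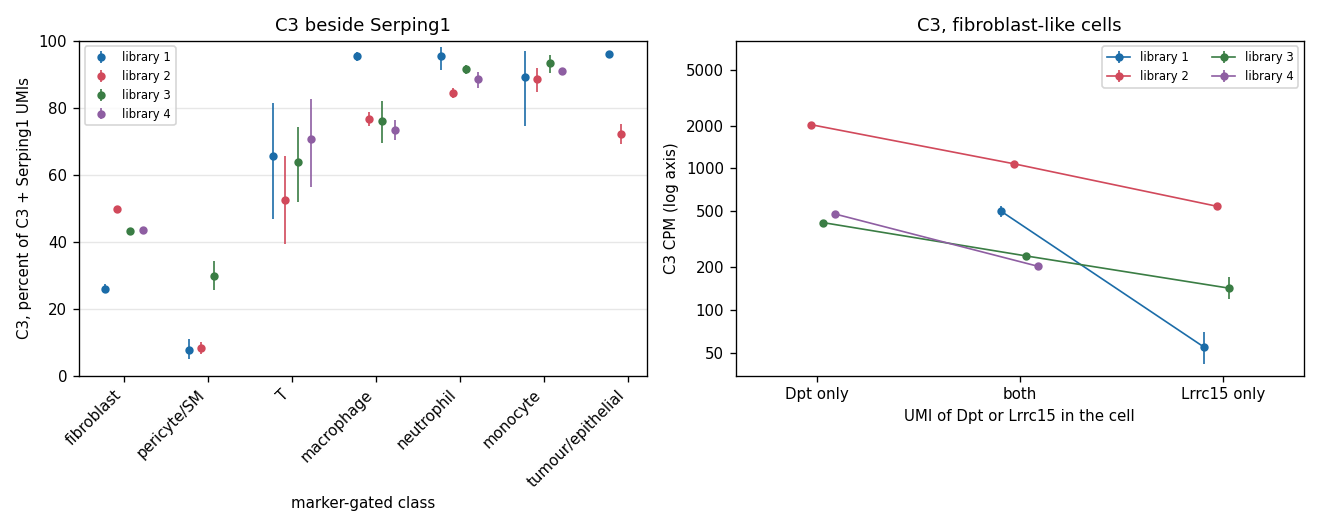
Left, C3 as a percent of the summed C3 and Serping1 UMIs in 7 classes by library, with exact binomial 95% intervals, where a class held at least 20 such UMIs; right, C3 level (CPM, log axis) in fibroblast-like cells split by UMIs of Dpt and Lrrc15, points joined within a library with exact Poisson 95% intervals. Fibroblast-like cells lie between 26.0% and 49.8%, neutrophil-like cells of library 3 reach 91.5%, and C3 falls from Dpt alone (2041 CPM in library 2) to Lrrc15 alone (542 CPM).

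Cfb, the gene of factor B, the protease of the alternative arm (chr17:34856374-34862518, minus strand), had the lowest levels of the 9 members in its leading class. Fibroblast-like cells held 29.2, 77.0, 19.0 and 28.0 CPM in libraries 1 to 4, monocyte-like cells 6.12, 15.4, 19.1 and 21.8 CPM and macrophage-like cells 17.3, 13.8, 10.5 and 15.2 CPM. In library 3 monocyte-like and fibroblast-like cells could not be ordered, since their intervals overlapped. The pooled lead of fibroblast-like over monocyte-like cells was 0.94 on the log2 scale and 0.17 without library 2. The T-like level was 1.12 to 5.20 CPM, and the interval of the ratio to it was above 1 in 4 of 4 libraries for both fibroblast-like and macrophage-like cells. Cfb lies within a stretch shared with Gm20547, a gene on the same strand that joins it to C2, so reads common to them could have gone uncounted and the Cfb level is uncertain. C2 itself, the protease partner of C4 and direct neighbour of Cfb, was highest in fibroblast-like cells in the pooled libraries at 33.1 CPM, and that class led in 2 of 4 libraries.

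Serping1, the gene of the C1 inhibitor (chr2:84765387-84775444, minus strand), was the most abundant member in fibroblast-like cells, at 973, 1441, 460 and 534 CPM, which held 93.0% of its UMIs when pooled and 70.4% in library 1. Pericyte or smooth muscle-like cells stood at 1331 CPM in library 1, above fibroblast-like cells, and at 658 and 201 CPM in libraries 2 and 3, below them. Endothelial-like cells held 166, 47.7 and 60.6 CPM in libraries 1 to 3, 27.0-fold (14.3 to 56.2) the T-like level in library 1, 4.07-fold (2.56 to 6.63) in library 3 and 1.37-fold (0.93 to 2.103) in library 2. Macrophage-like cells held 3.60, 45.7, 20.2 and 23.8 CPM beside 6.14, 34.7, 14.9 and 15.6 CPM in T-like cells, and their ratio's interval was above 1 in 0 of 4 libraries. The proteases that Serping1 blocks had the same leading class when pooled, and the C1q chains another.

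Over 32 sets of 1 class in 1 library with at least 50 cells, the profiles of the members were compared by Pearson's r of log2(CPM + 10), as a description, since sets of 1 library share its depth and free RNA. The C1q chains were most like each other among 7362 genes, with r of 0.99 for each pair, and next most like Mmp12 (0.92 with C1qa, 0.95 with C1qc), the macrophage elastase. C1ra was most like Mfap2 (0.97) and Thbs3 (0.97), genes of the extracellular matrix, and C1s1 like C1s2 (0.97), Antxr1 (0.96) and Postn (0.96). Serping1 was most like Meg3 (0.96) and Fstl1 (0.96). C4b was most like C1ra (0.90) and C2 (0.89). C3 had its own neighbours, Pi16 (0.91), a gene of adventitial fibroblasts, Mgst1 (0.85) and the acute-phase gene Saa3 (0.82), and Cfb was most like Dram1 (0.85). Between members, C1s1 and C1ra reached 0.93 and C1s1 and Serping1 0.90, whereas C3 and Serping1 reached 0.55.

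Of 45 other complement genes listed by role, 23 reached 10 CPM in a class and 3 had no UMI in the classes. Among recognition molecules, Fcna, a ficolin, stood at 21.2 CPM in macrophage-like cells, its highest class in 4 of 4 libraries. The collectin Colec12 was nearly level in macrophage-like (132 CPM) and fibroblast-like cells (128 CPM), and the mannose-binding lectins Mbl1 and Mbl2 had no UMI. Among components, Cfp, the gene of properdin, which stabilises the alternative enzyme, was myeloid, at 337 CPM in monocyte-like, 321 in macrophage-like, 122 in neutrophil-like and 13.5 in fibroblast-like cells. The terminal components were near zero, with Hc, the C5 gene, at no more than 1.83 CPM and C6 at 17.7 CPM in macrophage-like cells as the exception. The C6 level of macrophage-like cells was 37.1 CPM in library 1, and library 3 held no UMI.

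Regulators and receptors were spread over further classes. Vtn, the gene of vitronectin, stood at 30.4, 189.6 and 10.8 CPM in pericyte or smooth muscle-like cells of libraries 1 to 3, which led in 2 libraries. Clu, the gene of clusterin, stood at 597 CPM in tumour or epithelial-like cells. Of the membrane regulators, Cd55 was highest in the 80 basophil or mast-like cells (81.7 CPM, 52.8 to 121), followed by fibroblast-like cells at 57.7 CPM. Cd59a stood at 46.2 CPM in endothelial-like and 189 CPM in plasmacytoid dendritic-like cells. C3ar1, the receptor of the C3a fragment, was highest in macrophage-like cells in 4 of 4 libraries, at 173, 330.1, 367 and 551 CPM. C5ar1, the C5a receptor, was highest in neutrophil-like cells in 4 of 4 libraries, at 435, 583, 608 and 550.2 CPM, and Itgam, a chain of complement receptor CR3, in monocyte-like cells (528 CPM pooled).

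**Figure D5:**
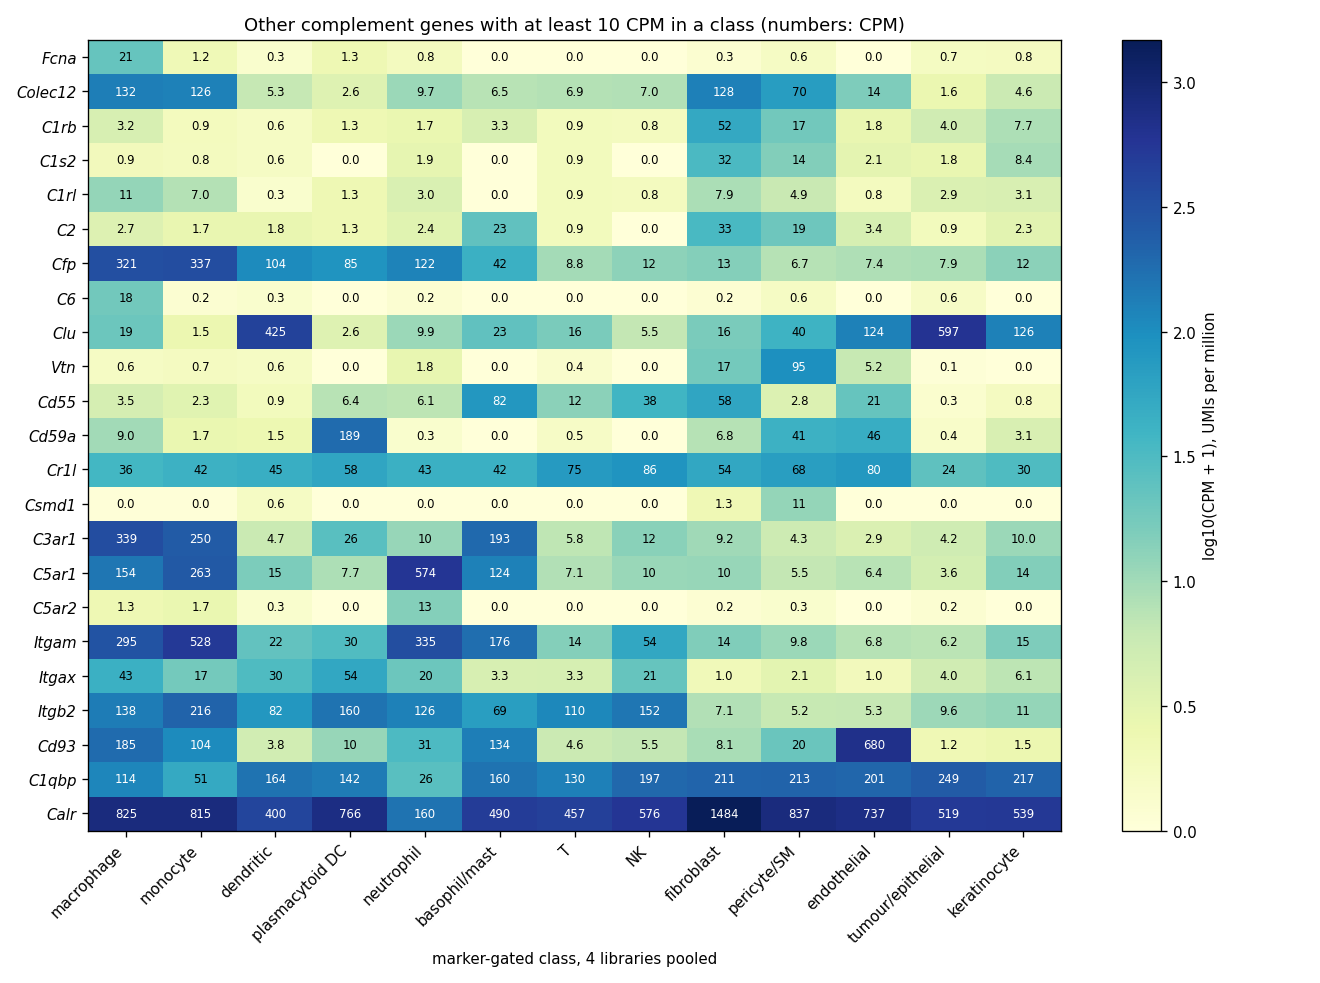
Heat map of the 23 other complement genes that reached 10 CPM in a class (rows, ordered by role) in 13 marker-gated classes (columns), 4 libraries pooled; colour is log10(CPM + 1) and numbers are CPM. C3ar1 peaks in macrophage-like cells (339 CPM), C5ar1 in neutrophil-like cells (574 CPM) and Cd93 in endothelial-like cells (680.2 CPM).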

How the data were processed

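Single-cell RNA of 4T1 tumours was measured with 10x Genomics 3′ chemistry. The authors deposited 1 matrix of raw UMI counts, made with Cell Ranger, for which the labels and the matrix header name versions 2.1.1, 3.0.2 and 6.1.2, on the build mm10 by the submitters' processing notes. The labels describe 15603 cells after a filter on genes and mitochondrial counts, whereas the deposited matrix held 33064 barcodes and the same limits left 32133. The sources do not say whether read depth was equalised between libraries. All 55450 gene identifiers were found in GENCODE vM21, used for coordinates.

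A cell was scored for each class by the mean of its best 3 markers (log-scaled counts per cell) and assigned where the best score was at least 0.3, at least 2 markers had a UMI and the lead over the next class was at least 0.15. Classes of a library with under 20 cells, and pooled classes with under 50, were not used. Counts of a class were summed and divided by its total, with exact Poisson intervals for levels and exact (Clopper-Pearson) binomial 95% intervals for shares, which leave out differences between mice. Ratios carry exact conditional binomial intervals. Doublets were not removed in the values reported, and Scrublet scores served as an alternative. For equal depth, cells were thinned to 1000 UMIs, which left out 1890 cells. The members, gene lists and splits were chosen with earlier results of these data known. The genes named were the members, 45 listed complement genes (1 further gene of the list is not reported here) and the closest profiles of each member. Of the members, 5 had a promoter in the RefSeq table. The calculations were run on simulated cells drawn from the summed profiles of the gated classes. Doublets and spread between cells beyond counting were left out, so the classes themselves were not tested. Python 3.11.15, numpy 2.4.6, scipy 1.17.1, pandas 2.3.3 and scanpy 1.11.5 were used.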

Additional observations from a re-analysis of the deposited data

How the results depend on the processing

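The leading class of all 9 members was the same with a minimum of 500 genes, a maximum of 10% mitochondrial UMIs, a stricter gate, without the 5% of cells with the highest doublet scores, after thinning and with each library left out. With Leiden clusters it was the same for 8, since C4b stood slightly higher in pericyte or smooth muscle-like cells (log2 ratio of fibroblast-like to next class -0.0054). Each cluster was named by the majority class of the marker gate among its cells, so this setting does not name cells apart from the gate. The log2 ratio of the leading class to the class that came next in the main pooled setting was also recomputed. In all, 86 of 87 such ratios were above 0, and 43 of these moved by more than counting error. The ratio below 0, that of C4b with Leiden clusters, is not among the 43 and fell from 1.49 to -0.0054. Which class came next was not recomputed. Without library 2 the log2 ratio of Cfb went from 0.94 to 0.17, of C4b from 1.49 to 0.31 and of C3 from 1.54 to 0.86. The percent of C1q UMIs in macrophage-like cells (73.4) became 73.8 with 500 genes, 66.4 with the stricter gate, 82.4 with Leiden clusters, 79.2 without likely doublets, 74.1 after thinning and 64.5 to 76.2 with a library left out, lowest without library 1. The percent of C3 UMIs in fibroblast-like cells (77.8) became 76.4 with the stricter gate, 78.5 without likely doublets, 50.7 after thinning, which gives every cell the same weight, and 64.2 to 83.4 with a library left out, lowest without library 2. The percent for C4b, C1s1, C1ra and Serping1 together (90.8) became 88.8 with the stricter gate, 91.2 with Leiden clusters, 91.2 without likely doublets, 79.3 after thinning and 87.2 to 93.1 with a library left out. Without library 1 the keratinocyte-like class was too small, so the C1q ratios to it were not computed.

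No paired analysis was possible because no barcode suffix is tied to a sample, and no test between groups was run. In T-like cells the C4b, Cfb, C1ra and C1s1 levels of each library, and the C1q levels of libraries 2 to 4, rest on a few UMIs. Ratios to them are wide.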

Other observations

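Acute-phase and interferon-response genes were read in the same classes. Saa3, an acute-phase apolipoprotein gene, stood at 3042 CPM in pooled fibroblast-like cells, 666 in neutrophil-like, 387 in macrophage-like and 141 in T-like cells. Il6, the interleukin-6 gene, stood at 213 CPM in fibroblast-like and 248 CPM in pericyte or smooth muscle-like cells, beside 13.1 CPM in macrophage-like cells. Cxcl9, an interferon-gamma-induced chemokine, stood at 136 CPM in macrophage-like and 125 CPM in pericyte or smooth muscle-like cells. Lcn2, the lipocalin of neutrophil granules, stood at 3279 CPM in neutrophil-like and 175 CPM in fibroblast-like cells. These levels are pooled over the 4 libraries and were not compared between treatments.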
